A study of Homo sapiens with 4 samples.

Results

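Peroxisome proliferator-activated receptors (PPARs) are nuclear receptors whose ligands include fatty acids. They bind DNA as heterodimers with a retinoid X receptor (RXR), at paired AGGTCA hexamers separated by a single base, and recruit coactivators such as the PGC-1 proteins. The 10 genes described here are the PPAR genes PPARA, PPARD and PPARG, the RXR genes RXRA, RXRB and RXRG, the coactivator genes PPARGC1A and PPARGC1B, the oxysterol receptor gene NR1H3, whose product LXR alpha also pairs with RXR, and CREB3L3, which encodes a transcription factor held in the endoplasmic reticulum membrane until proteases release it. They were taken by symbol from a table of 56832 genes, and all 10 were found.

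RNA was sequenced from A375, an established human melanoma line labelled as wild type and kept in DMEM with serum. The vehicle group received isopropanol and the octanoate group 1 mM octanoate, a medium-chain fatty acid, each for 48 h. Each group has 2 libraries. Nothing in the labels says whether these came from separate cultures, so p-values measure the spread between these libraries only, which may be technical. In a bulk sample, fewer cells of a type and less RNA per cell cannot be told apart.

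Values are normalised read counts, which are read counts divided by 1 size factor per library, and each library held between 67785956 and 78005035 recovered reads. Differences are octanoate minus vehicle on the log2(normalised count + 1) scale from limma, and a gene was called changed at a Benjamini-Hochberg adjusted p under 0.05 over 20250 tested genes. Vehicle 2 held a read for 37441 genes and the other libraries for 34659 to 35677. Of 10 melanocyte lineage markers, SOX10 stood between 34072 and 41363 normalised counts and MITF between 2414 and 3533, whereas the pigment gene TYR had between 2 and 4 reads per library. The summed level of the 10 markers ran from 47824 to 52246 in vehicle and from 42317 to 47271 under octanoate. Among the other pigment genes, PMEL had between 67 and 102 reads per library, MLANA 36 to 50, DCT 11 to 31 and TYRP1 8 to 29. The summed level of 8 keratinocyte markers, mostly KRT10, was 6987 and 5968 normalised counts in vehicle and 6859 and 5188 under octanoate. Within it KRT1 was at 0, KRT14 fell (log2 difference -2.08, limma adjusted p = 2.40e-13) and KRT15 rose (0.53, limma adjusted p = 0.000445). The sum of 8 blood cell markers, mostly LYZ, was 674 and 605 against 730 and 779.

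All 3 PPAR RNAs were present in vehicle, and PPARG was the most abundant of them. Under octanoate CREB3L3 rose about 10.4-fold, from 98.0 ± 1.59 to 1018 ± 17.1 normalised counts (SD, n = 2 each), and RXRG fell to 0.486 of its vehicle mean. PPARGC1B and NR1H3 rose by less than 1.5-fold, and PPARG and RXRA fell by 10.4% and 13.7% of their vehicle means. PPARA, PPARD, RXRB and PPARGC1A did not pass the test. Of the 10 genes, 6 were thus called, 3 higher and 3 lower, where 29.9% of all tested genes were called, 16.2% higher and 13.7% lower. The share called was 13.1% for genes with a mean from 10 to 100, 38.6% from 100 to 1000 and 38.1% from 1000 up. A call with a change of at least 2-fold was made for CREB3L3 and RXRG, and for 4.21% of all tested genes.

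**Figure D1:**
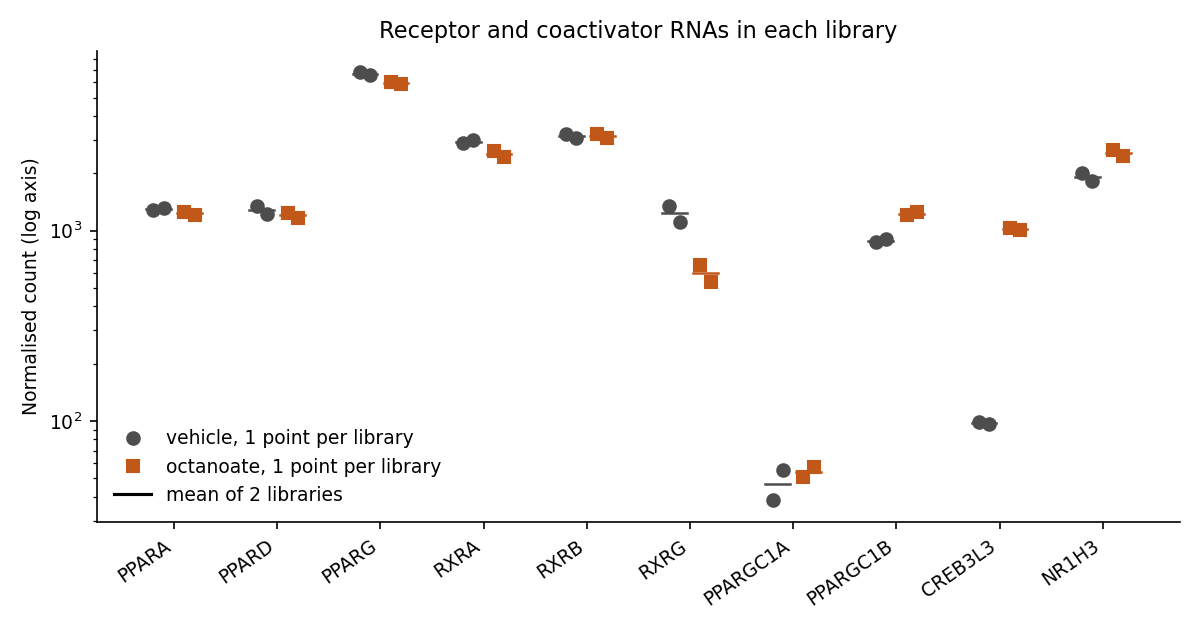
Normalised count (log axis) of the 10 genes in each library, with circles for the 2 vehicle libraries, squares for the 2 octanoate libraries and a line at each group's mean. CREB3L3 moves from near 98.0 to near 1018 and RXRG falls to 0.486 of its vehicle mean, while the groups of PPARD, RXRB and PPARGC1A overlap.

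To see which receptors the cells could draw on, levels were compared between genes per kilobase of union exon length in GENCODE 29. PPARG stood at 1469 ± 40.5 normalised counts per kb in vehicle (SD, n = 2), above 84.0% of 14150 tested protein-coding genes. RXRB followed with 824 and 783 counts per kb in the vehicle libraries, RXRG at 456 ± 63.3 and NR1H3 at 423 ± 27.6 normalised counts per kb. The vehicle libraries of RXRG and NR1H3 overlapped, so these neighbours in the order did not differ beyond their spread. Next came PPARD at 288 ± 19.8 and RXRA at 265 ± 6.21 counts per kb, whose vehicle libraries were separated by less than the spread of PPARD.

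PPARA lay lower, at 98.5 ± 1.80 normalised counts per kb, above 30.6% of the coding genes. Its place below PPARD rests on the division by length. Before it the vehicle counts were close, at 1303 ± 23.9 for PPARA and 1284 ± 88.4 for PPARD. PPARGC1B stood at 68.6 ± 1.72, CREB3L3 at 36.6 ± 0.595 and PPARGC1A at 4.30 ± 1.10 counts per kb, the last above 5.10% of the coding genes. The vehicle libraries of each gene from PPARA downwards did not overlap those of the next. Under octanoate CREB3L3 stood at 380 ± 6.39 normalised counts per kb, a level between those of NR1H3 (565 ± 26.5) and PPARD (269 ± 12.7) in the same libraries.

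PPARG, known as the master regulator of fat cell differentiation, lies at chr3:12287368-12434356 on GRCh38. Its normalised counts were 6793 and 6534 in vehicle and 6025 and 5920 under octanoate. Both octanoate libraries lay below both vehicle libraries. The log2 difference was -0.16 (SE 0.06, limma adjusted p = 0.0397). This call was near the threshold and was lost when any 1 of the 4 libraries was left out, with adjusted p between 0.0641 and 0.209 and a difference between -0.19 and -0.13.

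PPARA, the receptor that drives fatty acid oxidation genes in liver, lies at chr22:46150521-46243756. Its normalised counts were 1286 and 1320 in vehicle and 1254 and 1209 under octanoate, so the groups did not overlap, as was the case for 63.1% of all tested genes. The log2 difference of -0.08 had a 95% interval from -0.23 to 0.07 (limma adjusted p = 0.437). PPARD, the broadly expressed isoform, lies at chr6:35342558-35428191. It had 1347 and 1222 normalised counts in vehicle and 1241 and 1161 under octanoate, and these groups overlapped. Its log2 difference was -0.10, with a 95% interval from -0.25 to 0.06 (limma adjusted p = 0.373).

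Within the PPAR family the make-up of the RNA hardly moved. Per kilobase, PPARG made up 78.9% and 79.4% of the summed PPAR RNA in vehicle, against 78.1% and 78.8% under octanoate. PPARD held 15.5% ± 0.579 in vehicle and 16.0% ± 0.457 under octanoate, and PPARA held 5.31% ± 0.265 and 5.55% ± 0.039 (SD, n = 2 each). The smallest p of an exact two-sided permutation test at this size is 0.333, which it gave for the PPARG share. The shares depend on the length used: PPARG held 72.0% in vehicle without a length correction and 87.5% with the longest transcript of each gene. Without the correction PPARA held 14.1% and PPARD 13.9% in vehicle, so their order also depends on it. The summed PPAR RNA per kilobase was 1856 ± 58.5 in vehicle and 1680 ± 31.3 under octanoate.

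**Figure D2:**
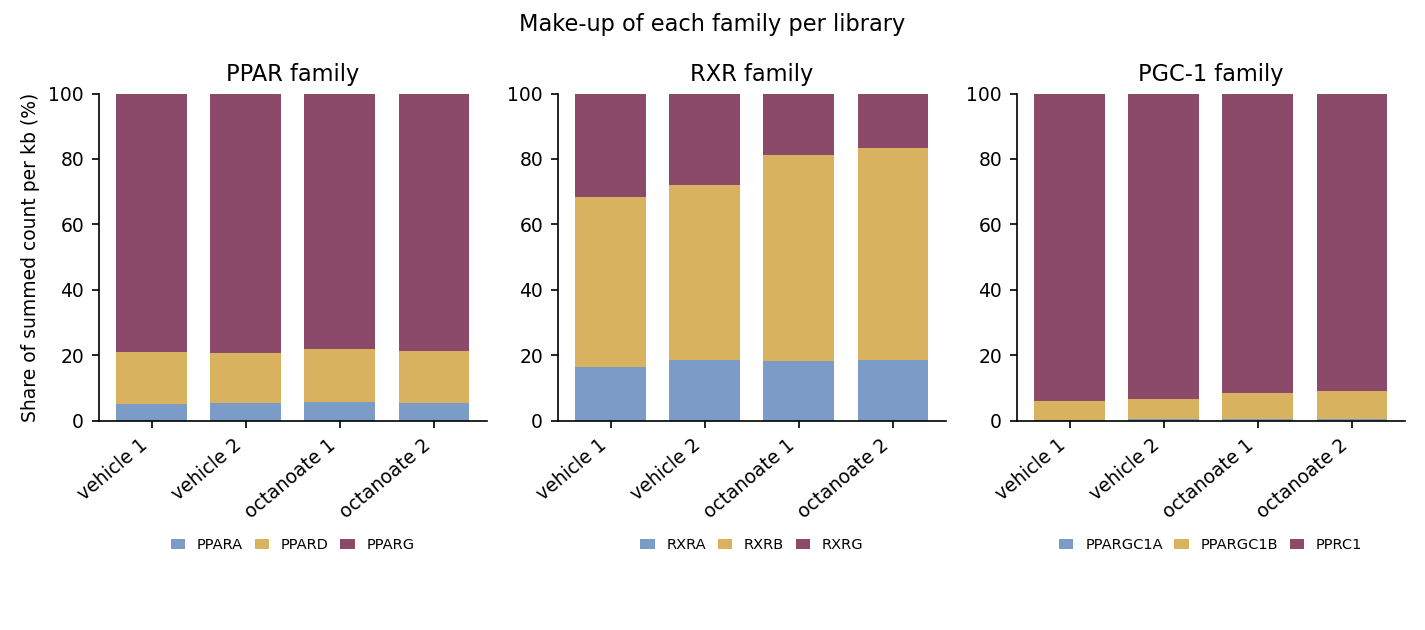
Share of each gene in the summed normalised count per kilobase of its family (%), 1 stacked bar per library. PPARG holds between 78.1% and 79.4% of the PPAR RNA in every library, while the RXRG share falls from 31.6% and 28.1% in vehicle to 18.7% and 16.6% under octanoate.

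The RXR genes encode the shared heterodimer partners, and their RNAs did not move together. RXRG lies at chr1:165400917-165445355 and is known as a gene of neural crest-like melanoma cells. Its normalised counts were 1351 and 1109 in vehicle and 656 and 539 under octanoate. Even the higher octanoate library stood at 0.592 of the lower vehicle library. The log2 difference was -1.04 (SE 0.10, limma adjusted p = 1.34e-08), between -1.18 and -0.90 when any 1 library was left out. When limma was run without its intensity trend, RXRG had an adjusted p of 0.0519.

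Other markers of the lineage moved in both directions in the same libraries. MITF, the melanocyte lineage factor, had a log2 difference of -0.48 (limma adjusted p = 2.33e-06), and S100B, a calcium-binding protein of melanocytes and glia, had one of -1.12 (limma adjusted p = 9.15e-12). SOX10, the neural crest factor, had a difference of -0.12 (limma adjusted p = 0.209). EDNRB, an endothelin receptor gene of the lineage, had one of 0.37 (limma adjusted p = 5.70e-05), and the pigment gene PMEL had one of 0.55 (limma adjusted p = 0.0289; 0.0846 to 0.125 when any 1 library was left out). Of the 9 tested lineage markers 2 were thus called lower and 2 higher, or 44.4%, where 29.9% of all tested genes were called. Their part in the fall of RXRG was not tested.

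RXRA lies at chr9:134317098-134440585 and encodes the most widely studied RXR. It had 2888 and 2985 normalised counts in vehicle and 2617 and 2448 under octanoate, without overlap. Its log2 difference was -0.21 (SE 0.06, limma adjusted p = 0.0128). The call was lost without vehicle 2 (adjusted p = 0.0994) and without octanoate 2 (adjusted p = 0.159). RXRB, at chr6:33193588-33200688, had 3231 and 3070 normalised counts in vehicle and 3225 and 3063 under octanoate. These values overlapped almost fully, and the log2 difference of -0.0033 had a 95% interval from -0.13 to 0.13 (limma adjusted p = 0.977). In GENCODE 29, 244 exonic bases of RXRB (6.22%) overlap SLC39A7, which is transcribed the other way. Whether counting was stranded is not given in the sources used here, so reads there cannot be told apart.

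The measured make-up of the RXR family therefore differed between the groups. The RXRG share of the summed RXR RNA per kilobase was 29.8% ± 2.46 in vehicle and 17.7% ± 1.47 under octanoate, and the RXRB share was 52.7% ± 1.07 and 64.1% ± 1.30 (SD, n = 2 each). RXRA held 17.4% ± 1.39 and 18.3% ± 0.172. Without a length correction RXRG held 16.8% and 9.5%, RXRA 40.2% and 40.4% and RXRB 43.1% and 50.1%, so the order of RXRA and RXRG in vehicle depends on the length used, while the RXRG share was lower under octanoate either way. For the RXRG and RXRB shares the exact permutation test gave its smallest possible p of 0.333, so it cannot decide on these differences. The higher RXRB share came with a log2 difference of -0.0033 for RXRB itself, as a share also rises when the other genes fall. The summed RXR RNA per kilobase was 1525 ± 86.1 in vehicle and 1252 ± 70.9 under octanoate.

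Among the coactivators, PPARGC1B rose and PPARGC1A stayed near the lower end of the measured range. PPARGC1B encodes PGC-1 beta, a coactivator of mitochondrial and lipid genes, at chr5:149730298-149855022. It had 869 and 900 normalised counts in vehicle and 1207 and 1245 under octanoate. Both octanoate libraries were at least 1.34 times the higher vehicle library. The log2 difference was 0.47 (SE 0.08, limma adjusted p = 3.36e-05).

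PPARGC1A encodes PGC-1 alpha, the best known driver of mitochondrial biogenesis, at chr4:23755041-23904089. It was counted with 39 and 57 reads in vehicle and 53 and 53 reads under octanoate. The groups overlapped after normalisation, and the log2 difference of 0.23 had a 95% interval from -0.28 to 0.74 (limma adjusted p = 0.525). At these read numbers the interval is wide and holds changes in both directions. PPRC1, the third member of the PGC-1 family, was the most abundant, with 93.6% ± 0.449 of the family's RNA per kilobase in vehicle and 91.2% ± 0.267 under octanoate. The PPARGC1B share was 6.02% ± 0.340 and 8.33% ± 0.228 (SD, n = 2 each), and 11.9% and 16.1% without a length correction.

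NR1H3 lies at chr11:47248300-47269032, and its product switches on cholesterol efflux and lipid synthesis genes. It had 2007 and 1830 normalised counts in vehicle and 2644 and 2474 under octanoate. The lower octanoate library was 1.23 times the higher vehicle library. The log2 difference was 0.42 (SE 0.07, limma adjusted p = 4.49e-05), and with no intensity trend NR1H3 had an adjusted p of 0.0751. NR1H2, which encodes LXR beta, had a difference of 0.15 (limma adjusted p = 0.0804). In GENCODE 29, 189 exonic bases of NR1H3 (4.17%) overlap the oppositely transcribed ACP2, which had a difference of -0.13 (limma adjusted p = 0.179). For the other genes no exon overlapped that of another gene. Apart from these overlaps of RXRB and NR1H3, no transcript of another gene matched the 10 genes over 100 bases at 95% identity.

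CREB3L3, also called CREBH, is best known from liver and small intestine, where it governs fasting and triglyceride genes. It lies at chr19:4153601-4173054. Its reads numbered 101 and 100 in vehicle and 1070 and 928 under octanoate. Normalised, these were 99.1 and 96.9 against 1030 and 1006, so that the groups lay 10.1-fold apart at their nearest. The log2 difference was 3.36 (SE 0.11, limma adjusted p = 3.84e-17), the 12th largest rise among the 20250 tested genes. It stayed between 3.31 and 3.38 under all alternatives run.

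**Figure D3:**
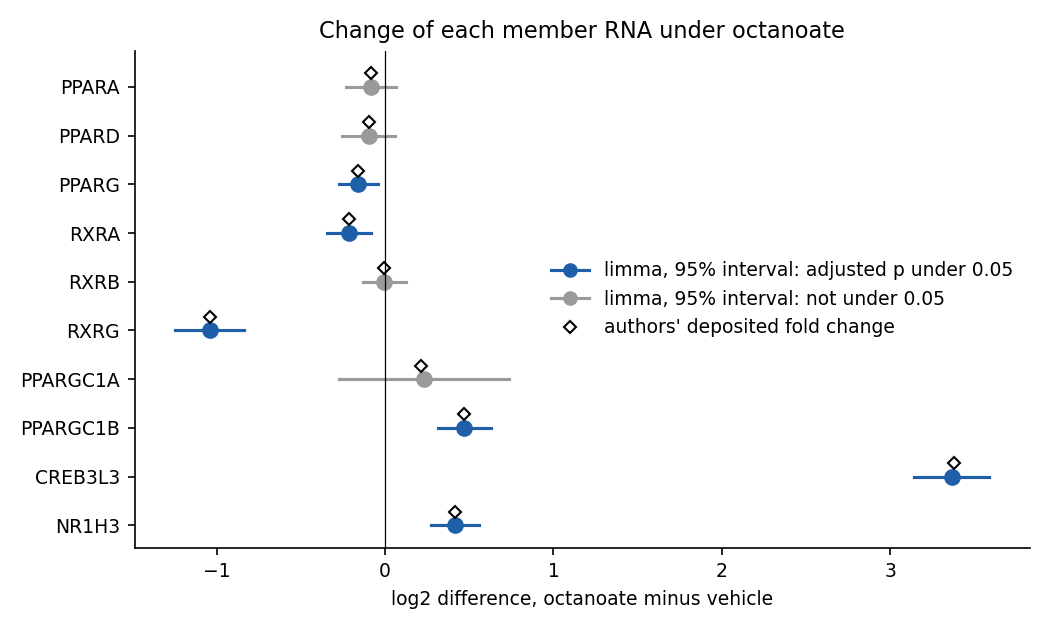
Log2 difference of the 10 genes, octanoate minus vehicle, with the 95% interval from limma as a line and the fold change of the authors' deposited table as an open diamond. CREB3L3 lies at 3.36, RXRG at -1.04, and the other genes between -0.21 and 0.47.

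The genes beside CREB3L3 on chromosome 19 did not share the size of its rise. SIRT6, which faces it with its 3′ end 1055 bases away, had a log2 difference of 0.18 (limma adjusted p = 0.0425), a call lost in each leave-one-out fit but that without octanoate 2. ANKRD24 had one of 0.32 (limma adjusted p = 0.251) and MAP2K2 one of -0.12 (limma adjusted p = 0.184). Other members of the CREB3 and ATF6 family of membrane-held factors, and the proteases MBTPS1 and MBTPS2 that release them, were all tested. None of these 8 genes was called by limma, against 29.9% of all tested genes, and their differences ran from -0.21 to 0.29. CREB3L4 was the 1 gene with an unadjusted p under 0.05 (limma adjusted p = 0.0565), edgeR called 1 gene and DESeq2 called 0.

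Markers of liver cells did not accompany CREB3L3. ALB had between 1 and 3 reads per library and APOA1 had no read in any library. The summed level of 8 hepatocyte markers, mostly SERPINA1, ran from 379 to 435 normalised counts in vehicle and from 336 to 365 under octanoate. Of the 2 tested, TTR was called lower (log2 difference -1.52, limma adjusted p = 0.0247). Its reads numbered 17 and 24 in vehicle and 4 and 9 under octanoate. SERPINA1 was not called (-0.18, limma adjusted p = 0.237). Of the genes that CREB3L3 is known to act on in liver, FGF21 had 2 and 4 reads in vehicle and 19 and 13 reads under octanoate, below the level tested, and APOA4 had none in any library.

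The 3 genes with the profile nearest to that of CREB3L3 were sought among the 13481 other genes whose mean reached 100. Profiles were log2 values centred on the vehicle mean, and likeness was the Euclidean distance over the 4 libraries. C11orf86 was nearest, at a distance of 0.15, followed by AC003092.1 at 0.22 and the interleukin gene IL1B at 0.26. Their log2 differences were 3.39, 3.23 and 3.54. The vehicle mean of each of these 3 genes was under 100, so they entered the search only through the octanoate libraries. With 4 libraries such a likeness says little more than that the sizes of the rises were close.

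The promoter of CREB3L3 is shown because its RNA changed most and because its window held the closest match to a PPAR and RXR element. RefSeq promoter windows, from 250 bases before to 50 after each annotated start on GRCh38.p14, were searched on both strands for the element DR1, which is AGGTCA, any 1 base (N) and AGGTCA again. All 10 genes had at least 1 window, 22 in all. The 250 bases before the CREB3L3 start, chr19:4153381-4153630 on the plus strand, are given 5′ to 3′ with the match in capitals.
CREB3L3: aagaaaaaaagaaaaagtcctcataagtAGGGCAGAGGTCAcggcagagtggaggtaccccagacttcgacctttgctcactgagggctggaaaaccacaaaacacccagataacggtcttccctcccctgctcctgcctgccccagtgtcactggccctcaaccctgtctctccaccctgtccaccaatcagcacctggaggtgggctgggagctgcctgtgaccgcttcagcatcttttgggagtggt

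The match AGGGCAGAGGTCA lies 222 to 210 bases before the start and differs from DR1 by T4G, counted from 1 at the 5′ end of the element. A match with at most 1 mismatch was present in 118 of 35116 windows of all genes (0.336%). That share is per window, whereas the CREB3L3 window was picked as the closest match of 22, so it does not give the rarity of such a pick. No other window of the 10 genes held DR1 with up to 2 mismatches, which 2.97% of all windows did. None held DR4, the same repeat with 4 bases between and the spacing typical of LXR, with up to 2 mismatches, against 2.34% of all windows. Of 37 windows of the known PPAR targets listed below, 0 held DR1 with at most 1 mismatch and 5 (13.5%) held it with up to 2. A match is a description of the letters in the window and not a site of binding.

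Exact AGGTCA hexamers were found in 6 of the 22 windows, in 13.8% of all windows and in 5.41% of the PPAR target windows. The second part of the CREB3L3 match is 1 of the hexamers in the 22 windows. The PPARG windows from chr3:12288810 and chr3:12288820 overlap and hold the same hexamer, so the windows are not independent. Hexamers of the first PPARG start, of RXRG and of the first NR1H3 start are shown in capitals. They set a gene that fell little, the gene that fell most and another that rose beside CREB3L3. The stretches are chr3:12287121-12287219, chr1:165445322-165445376 on the minus strand and chr11:47248130-47248195. In RXRG the hexamer lies on the opposite strand and reads TGACCT.
PPARG: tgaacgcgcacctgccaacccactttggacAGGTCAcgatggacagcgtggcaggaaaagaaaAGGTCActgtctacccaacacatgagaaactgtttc
RXRG: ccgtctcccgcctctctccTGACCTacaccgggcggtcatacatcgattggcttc
NR1H3: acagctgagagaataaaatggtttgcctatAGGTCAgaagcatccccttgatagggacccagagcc

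**Figure D4:**
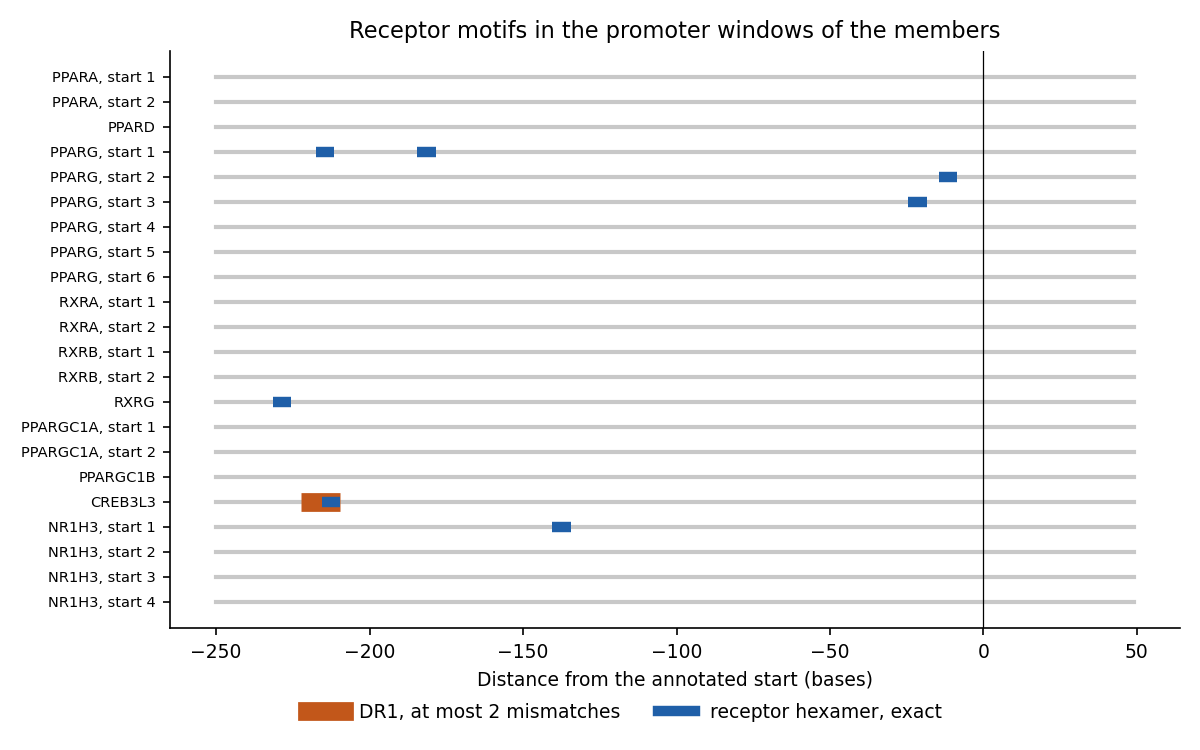
Positions of exact AGGTCA hexamers and of DR1 matches with at most 2 mismatches in the 22 promoter windows of the 10 genes, by distance from the annotated start in bases, with a grey line for each window. The DR1 match stands in the CREB3L3 window, and hexamers stand in windows of PPARG, RXRG, CREB3L3 and NR1H3.

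Genes known as PPAR targets were read beside the receptors, from a list of 32. Of the 26 tested, 16 were called higher and none lower by limma, with 10 not called (16.2% of all tested genes were higher), and the median log2 difference was 0.46 against 0.01 over all tested genes. The 3 called with the smallest p were ANGPTL4, an inhibitor of lipoprotein lipase (5.22), the lipid droplet coat gene PLIN4 (2.21) and the fatty acid carrier gene FABP4 (6.68). FABP4 and PLIN5 had a vehicle mean under 10 and entered the test only through the octanoate libraries. PLIN4 had 1252 and 1198 normalised counts in vehicle and 5581 and 5798 under octanoate (limma adjusted p = 4.09e-18). PDK4, which encodes a kinase that restrains pyruvate use, had 2157 and 2147 normalised counts in vehicle and 5288 and 5479 under octanoate (limma adjusted p = 2.67e-14). CPT1A, the gate of fatty acid entry into mitochondria, had a log2 difference of 0.48 (limma adjusted p = 4.27e-07). PDK4 and CPT1A were chosen after their values were seen.

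Some of these targets are fat cell genes. Of 8 adipocyte markers, ADIPOQ had 2, 0, 1 and 0 reads in vehicle 1, vehicle 2, octanoate 1 and octanoate 2, and LEP had between 1 and 4. The summed level of the adipocyte markers other than FABP4 was 488 and 394 normalised counts in vehicle and 569 and 586 under octanoate. The hormone genes ADIPOQ and LEP were thus near 0 in all libraries. Of the 5 tested adipocyte markers 3 were called higher and none lower, where 16.2% of all tested genes were called higher. They were FABP4, CIDEC (0.82, limma adjusted p = 0.0128) and LIPE (0.42, limma adjusted p = 0.0125). FABP4 entered the test only through the octanoate libraries. CIDEC and LIPE were not called by DESeq2 (adjusted p = 0.0841 and 0.0624), without a filter or without an intensity trend. The call of CIDEC was lost without vehicle 2 (adjusted p = 0.188) and without octanoate 2 (adjusted p = 0.160), and that of LIPE without vehicle 2 (adjusted p = 0.264). The part of these markers in the count of PPAR targets was not tested.

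**Figure D5:**
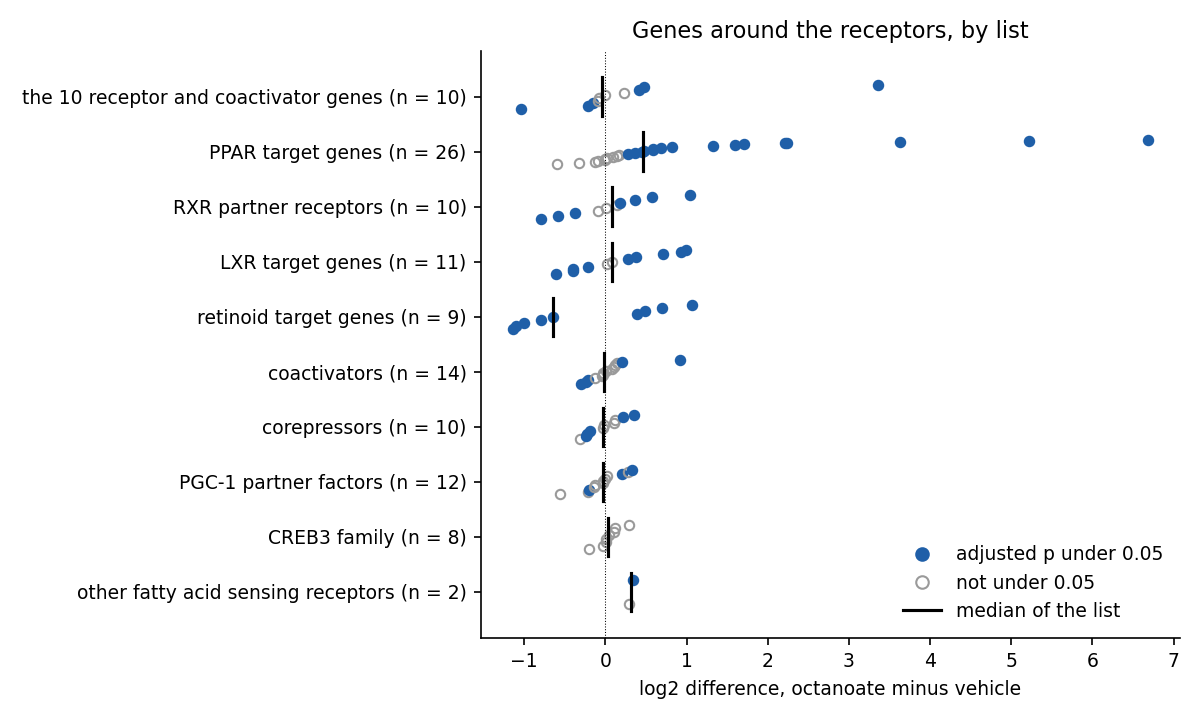
Log2 difference, octanoate minus vehicle, of each tested gene in 9 lists and of the 10 genes, with filled points for an adjusted p under 0.05 and a line at the median of each list. The PPAR targets spread to the right with a median of 0.46, and the retinoid targets split into 4 higher and 5 lower.

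Receptors that share RXR as a partner moved in both directions. Of 10 tested from a list of 12, 4 were called higher and 3 lower by limma, where 29.9% of all tested genes were called. The median log2 difference was 0.08. NR4A1, an early response orphan receptor, had 3357 and 3033 normalised counts in vehicle and 6709 and 6409 under octanoate (difference 1.04, limma adjusted p = 4.53e-12). THRB, a thyroid hormone receptor gene, had 1847 and 1903 against 1261 and 1247 (difference -0.58, limma adjusted p = 4.85e-07). VDR, the vitamin D receptor gene, had 2871 and 2658 against 2157 and 2115 (difference -0.37, limma adjusted p = 0.000103). Among the retinoic acid receptors RARB had a difference of -0.79 (limma adjusted p = 0.00104) and RARG one of 0.01 (limma adjusted p = 0.934). That of RARA, 0.18, had an adjusted p of 0.0472 in limma and of 0.0746 to 0.277 when any 1 library was left out. Without the filter on low counts 3 of these receptors were called, and without the intensity trend 2.

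All 9 tested genes of the 12 retinoid targets were called, 4 higher and 5 lower, where 29.9% of all tested genes were called. DHRS3, a retinaldehyde reductase gene, had 9388 and 8283 normalised counts in vehicle and 4315 and 3892 under octanoate (difference -1.11, limma adjusted p = 4.22e-12). STRA6, which encodes the retinol-binding protein receptor, had 4648 and 4309 against 2871 and 2858 (difference -0.64, limma adjusted p = 1.63e-08). CYP26B1, a retinoic acid hydroxylase gene, went the other way, with 373 and 354 against 778 and 752 (difference 1.07, limma adjusted p = 2.29e-09). The related CYP26A1 had a difference of -1.14 (limma adjusted p = 0.0164), on 41 and 29 reads in vehicle and 13 and 16 under octanoate. Its call was lost without vehicle 1 (adjusted p = 0.185) and without octanoate 1 (adjusted p = 0.0941). Genes that retinoids are known to induce thus changed in opposite directions. Without an intensity trend 5 of the 9 were called.

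LXR targets also split. Of 11 tested, 5 were called higher and 4 lower, where 29.9% of all tested genes were called, and the median log2 difference was 0.08. The cholesterol efflux gene ABCG1 had 334 and 295 normalised counts in vehicle and 524 and 504 under octanoate (difference 0.71, limma adjusted p = 8.79e-06), and ABCA1, another transporter of this kind, had a difference of 0.38 (limma adjusted p = 3.74e-05). The apolipoprotein gene APOE had 337 and 269 against 656 and 551 (difference 0.99, limma adjusted p = 2.96e-07). SREBF1, the master gene of fatty acid synthesis, was lower, with 17289 and 16368 against 11308 and 10709 (difference -0.61, limma adjusted p = 1.18e-08). Without an intensity trend 2 of the 11 genes were called.

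Coregulators moved in both directions. Of 14 tested coactivators 2 were called higher and 3 lower, and of 10 corepressors 2 were called higher and 3 lower, with medians of -0.01 and -0.02. These are 35.7% and 50% of the tested genes, where 29.9% of all tested genes were called, so the share of coactivators is near that of all genes. CITED2, which encodes a CBP and p300 interacting protein, had 1591 and 1462 normalised counts in vehicle and 2934 and 2844 under octanoate (difference 0.92, limma adjusted p = 1.47e-10). CREBBP, the CBP acetyltransferase gene, had a difference of -0.30 (limma adjusted p = 0.000272) and TGS1 one of -0.23 (limma adjusted p = 0.00301). Among corepressors TBL1X had a difference of 0.35 (limma adjusted p = 3.73e-05), SIN3A one of -0.24 (limma adjusted p = 0.00236) and NCOR1, the nuclear receptor corepressor gene, one of 0.22 (limma adjusted p = 0.00340). Without an intensity trend 1 coactivator and 0 corepressors were called.

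Among 12 factors that act with or downstream of PGC-1, 2 were called higher and 1 lower, or 25% against 29.9% of all tested genes. The 12 are named PGC-1 partners below. ESRRA, the estrogen-related receptor alpha gene, had 5020 and 4370 normalised counts in vehicle and 6265 and 5514 under octanoate (difference 0.33, limma adjusted p = 0.000847). TFAM, a mitochondrial DNA packaging factor gene, had a difference of -0.20 (limma adjusted p = 0.0121) and TFB1M one of 0.20 (limma adjusted p = 0.0136). The calls of TFAM and TFB1M were each lost without vehicle 2 (adjusted p = 0.156 and 0.142) and without octanoate 2 (adjusted p = 0.108 and 0.0737), and that of TFB1M also without octanoate 1 (adjusted p = 0.0521). Without a filter, or without an intensity trend, no gene of this list was called.

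Among other receptors that sense fatty acids, those of the cell surface had few reads. The cell surface receptors FFAR1, FFAR2, FFAR3, FFAR4, GPR84 and HCAR2 had between 0 and 14 reads per library and were below the level tested. HNF4G, a nuclear receptor gene, had 237 and 234 normalised counts in vehicle and 295 and 302 under octanoate (difference 0.34, limma adjusted p = 0.0271). That call was lost when any 1 library was left out, with adjusted p between 0.0769 and 0.127. The related HNF4A had 21 and 46 reads in vehicle and 36 and 37 under octanoate (difference 0.29, limma adjusted p = 0.551).

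By the authors' deposited table, 6 of the 10 genes had an adjusted p under 0.05, where 12.9% of its 33533 genes did, or 25.1% of the 17280 whose adjusted p was not exactly 1. They were the 6 genes called by limma, each with the same sign. The authors' deposited table gives a log2 fold change of 3.38 for CREB3L3 (adjusted p = 2.55e-96) and of -1.04 for RXRG (adjusted p = 1.39e-13). For PPARG the authors' deposited table gives -0.16, with an adjusted p of 0.0427, close to the threshold there too.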

How the data were processed

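Gene counts were normalised by the authors with DESeq2 (per the file name) and deposited as a signal per gene and library. The submitters' processing notes name STAR 2.4, HTSeq 0.9.1, Picard, Trim Galore, bcl2fastq 2.17 and hg38. Annotation and strand use are not given in the sources used here. Each deposited signal value was a whole multiple of its library's smallest value (100%, relative tolerance 1e-04), so whole reads were recovered. The deposited comparison of the authors holds log2 fold changes, test scores and p-values, and gives an adjusted p of exactly 1 for 16253 genes.

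The main fit was limma 3.58.1 in R 4.3.3, with an intensity trend, on genes with a mean of at least 10 (two-sided, no covariate). Alternatives were edgeR 4.0.16, DESeq2 1.42.0, other pseudocounts, filters and scalings, no trend, the replicate number as a block and each library left out. Corrections for GC content and length, a fit on GENCODE genes only and shares by longest transcript were chosen after seeing the data. In simulated counts for 19987 genes limma recovered 60.0% of genes changed by 0.5 and 93.8% of those changed by 2 on the log2 scale. Of its 178 calls there, 23 (12.9%) were false.

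The 10 genes and all lists were chosen with earlier results of these data known. Named genes were the 10, the 3 called genes with the smallest p of each list, and the 3 profiles nearest to the called gene with the smallest p. PDK4, CPT1A, FGF21, APOA4, CYP26A1, ABCA1, NR1H2, RARA, RARB, RARG, PPRC1, PLIN5, CREB3L4, HNF4A, the markers and the flanking genes were named after their values were seen. Gene models came from GENCODE 29 (GRCh38), which held all 10 genes and 74.8% of tested genes. Shared sequence was searched with blastn 2.17.0, and promoter sequences are from RefSeq on GRCh38.p14.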

Additional observations from a re-analysis of the deposited data

How the results depend on the processing

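For the 10 genes, 145 of 160 values kept direction and side of the threshold. PPARG (-0.16) and RXRA (-0.21) were not called without a filter (adjusted p = 0.133 and 0.104) or without an intensity trend (0.199 and 0.154). Without the trend RXRG (-1.04, adjusted p = 0.0519) and NR1H3 (0.42, adjusted p = 0.0751) were not called either. Leaving out 1 library gave -0.19 to -0.13 for PPARG, -0.26 to -0.17 for RXRA, -0.040 to 0.034 for RXRB and -0.028 to 0.49 for PPARGC1A, so the last 2 changed sign (RXRB 0.034 without vehicle 1 or octanoate 2, PPARGC1A -0.028 without vehicle 1). The cause was not tested.

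All genes called numbered 6048, against 2595 without a filter and 1625 without a trend. Members called lower were 3, against 1 without a filter, 0 without a trend and 1 to 2 with a library left out. Without a filter, 3 RXR partners, 3 coactivators, 3 corepressors, 0 PGC-1 partners and 0 fatty acid receptors were called. Without a trend these were 2, 1, 0, 0 and 0, with 2 LXR targets and 5 retinoid targets. With a library left out, the calls were 3 to 4 coactivators, 3 to 6 corepressors, 1 to 3 PGC-1 partners, 0 to 1 of the CREB3 family and 0 fatty acid receptors (also 0 by DESeq2). PGC-1 partners called were 5 with equal totals and 5 with GC and length trends removed. The CREB3 family had 1 call with a filter at 50, with TMM, with equal totals, with edgeR and with GENCODE genes only, and 3 with GC and length trends removed.

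The fit with the replicate number as a replicate block called 8376 genes, 8 coactivators, 6 PGC-1 partners and 3 of the CREB3 family, and changed no call among the 10 genes (PPARG adjusted p = 0.00127). Same-numbered libraries deviated together with a correlation of 0.126 over 20250 genes and of 0.270 over the 13482 with a mean of at least 100, in 2 pairs only, and the labels do not say that a number marks a shared culture.

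The PPAR shares in vehicle and under octanoate without a length correction were 14.1% and 14.7% (PPARA), 13.9% and 14.3% (PPARD) and 72.0% and 71.1% (PPARG). With the longest transcript they were 3.47% and 3.64%, 9.06% and 9.40%, and 87.5% and 87.0%. Of 814 values for 51 other named genes, 735 kept direction and side. RARG changed sign (-0.051 to 0.069 with a library left out, -0.042 without octanoate 1, -0.018 with GC and length trends removed), as did PPRC1 (-0.071 to 0.0025, the latter without vehicle 1). Depth limits PPARGC1A, with 39 to 57 reads per library.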
